A study of Mus musculus with 16 samples.

Results

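Eme1, Cip2a, Gkap1, Oplah, Anapc15 and Ecm1 are 6 of the 12394 genes measured in T cells of mice with and without the transcription factor subunit GABPα. They were chosen by their values in resting cells, where they were among the genes highest in KO cells of both lineages, so that every difference at 0 h is given below as a description without a test. In resting cells 0.533% of all genes were called higher in KO than WT cells of the CD4 lineage and 1.13% in the CD8 lineage, where called stands for an adjusted p under 0.05 in limma with a fold over 1.5. Among the 40 genes called in both they took places 1, 3, 4, 5, 7 and 8 by the mean difference of CD4 and CD8 cells. That filter and order rest on the values that chose the 6 genes and are no test of them. Ecm1, the last of them, had a mean of 1.81 on the log2 scale, and the next genes in that order were Selenom at 1.78, Ptger2 at 1.75 and Drc1 at 1.67. Cenph and Trip13, at places 2 and 6 with means of 2.73 and 1.95, were not among those chosen.

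WT mice carried Gabpa f/f, a floxed Gabpa allele on both chromosomes, and KO mice (CD4Cre Gabpa f/f) carried the same alleles together with a Cre transgene that the CD4 promoter drives from the double-positive thymocyte stage on. WT cells thus shared the floxed alleles but held no Cre. Naive CD4 and CD8 T cells (CD25 negative, CD62L high and CD44 low) were sorted from spleen and lymph nodes. They were lysed straight away (0 h, resting) or after 18 h with antibodies to CD3 and CD28 together with IL-2. This gave 8 groups of lineage, genotype and time with 2 biological replicates each. The age of the mice is not given in the labels, nor is it said whether 1 or several mice made up a sample, and a p-value therefore describes the spread among these 16 arrays and no more.

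GABP is an Ets family factor in which GABPα binds DNA and GABPβ carries the activation domain, and its known targets include many housekeeping genes. T cells leave the resting state when the antigen receptor and CD28 are engaged together, and they then grow, copy their DNA and divide. Of the 6 genes, Eme1, Cip2a and Anapc15 serve chromosome repair or mitosis. Eme1 is the partner of the nuclease Mus81, which cuts branched DNA. Cip2a inhibits the phosphatase PP2A, and Anapc15 is a subunit of the anaphase-promoting complex. The others differ in kind. Oplah is oxoprolinase, which returns oxoproline to glutamate in the gamma-glutamyl cycle, Gkap1 is an anchor of cGMP-dependent protein kinase at the Golgi, and Ecm1 is a secreted matrix protein known in T cells for a part in exit from lymph nodes.

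Values are log2 probe set signals that the authors had normalized, with an array median of 5.24 to 5.43. Cd8a lay at 10.89 or above in every CD8 array and at 7.56 or below in every CD4 array, its highest CD4 values being those of CD4 WT replicate 1 at both times. For Gabpa itself the brightest probe set gave 8.74 to 9.34 in WT arrays and 9.09 to 9.79 in those labelled KO, where it was called higher in CD4 cells at 18 h (0.72 ± 0.20). A second Gabpa probe set differed by 0.95 to 1.53 over the 4 comparisons of KO and WT. Their position against the floxed segment is unknown here, and they therefore check nothing about the deletion. Gabpb1, a gene of the partner subunit, was called higher in KO cells in all 4 comparisons, by 1.37 to 1.63. In CD8 KO 18 h replicate 2 the 3' control probe sets exceeded the 5' ones by 3.76, against 0.46 to 1.58 in the other 15 arrays. Because RNA of many cells was pooled and each array was brought to 1 scale, fewer cells with a transcript and less of it per cell cannot be told apart.

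The RefSeq tables of mouse assembly GRCm38.p6 held promoter windows, from 250 bases before to 50 bases after an annotated start, for 4 of the 6 genes. They are shown because GABPα binds DNA at Ets motifs. The letters CCGGAAG, an Ets motif, or their reverse complement CTTCCGG were searched on both strands. A match stood in the windows of Eme1, Cip2a and Anapc15 and none in that of Ecm1. Of the 27025 genes in the table, 9.93% had such a match. The match began 47 bases before the start of Cip2a, 19 bases before the second annotated start of Anapc15 and 1 base after that of Eme1. The windows below lie on the minus strand at chr11:94653694-94653993 for Eme1 and at chr3:95739520-95739819 for Ecm1, and on the plus strand at chr16:48993938-48994237 for Cip2a and at chr7:101896081-101896380 for Anapc15. Each is written in the direction of its gene, with the match in capitals. The other window of Anapc15, at chr7:101885610-101885909, held none.
Eme1: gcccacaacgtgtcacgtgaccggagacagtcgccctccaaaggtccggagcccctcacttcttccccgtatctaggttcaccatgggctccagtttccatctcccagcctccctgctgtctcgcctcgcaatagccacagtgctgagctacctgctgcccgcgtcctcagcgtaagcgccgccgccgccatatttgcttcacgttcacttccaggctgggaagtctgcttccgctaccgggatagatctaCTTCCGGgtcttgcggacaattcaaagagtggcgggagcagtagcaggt
Cip2a: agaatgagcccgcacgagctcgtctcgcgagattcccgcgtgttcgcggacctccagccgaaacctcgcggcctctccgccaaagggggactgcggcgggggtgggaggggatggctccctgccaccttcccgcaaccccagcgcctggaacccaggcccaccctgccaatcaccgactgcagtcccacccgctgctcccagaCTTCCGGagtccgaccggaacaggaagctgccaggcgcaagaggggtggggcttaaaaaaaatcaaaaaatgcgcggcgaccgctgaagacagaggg
Anapc15: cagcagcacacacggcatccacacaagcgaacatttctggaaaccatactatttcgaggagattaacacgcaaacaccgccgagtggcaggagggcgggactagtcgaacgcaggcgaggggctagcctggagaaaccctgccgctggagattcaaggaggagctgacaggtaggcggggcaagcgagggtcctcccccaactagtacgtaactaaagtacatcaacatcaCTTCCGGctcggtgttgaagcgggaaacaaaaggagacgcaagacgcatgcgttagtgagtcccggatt
Ecm1: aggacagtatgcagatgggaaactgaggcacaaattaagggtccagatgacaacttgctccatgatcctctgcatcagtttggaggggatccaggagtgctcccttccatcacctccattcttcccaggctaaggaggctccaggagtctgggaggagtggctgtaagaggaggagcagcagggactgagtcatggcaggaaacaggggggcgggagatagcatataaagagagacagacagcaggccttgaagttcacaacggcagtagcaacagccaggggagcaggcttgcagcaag
Eme1 and Cip2a both share their start region with another gene. The start of Mrpl27 lies 48 bases from that of Eme1 and points away from it, and the starts annotated for Dzip3 lie 46 and 76 bases from that of Cip2a, also pointing away. The same CCGGAAG letters that stand in the Eme1 window stand in that of Mrpl27, and those of Cip2a stand in both windows of Dzip3. Each is a match of letters and not a measured binding site.

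The comparison at 18 h asked which of these genes still differed between KO and WT cells after stimulation, on arrays that had no part in their choice. Eme1 and Oplah were higher in stimulated KO cells of both lineages, by 2.06-fold and 3.71-fold in CD4 and by 2.62-fold and 4.29-fold in CD8 cells. Gkap1 and Ecm1 were higher in stimulated KO CD8 cells, by 4.86-fold and 4.58-fold. Cip2a and Anapc15 were called in neither lineage. By limma, 2 of 6 were thus called higher in CD4 and 4 of 6 in CD8 cells and 0 lower, and 5 of 6 had an unadjusted p under 0.05 in each lineage, where 17.6% (CD4) and 16.5% (CD8) of all genes had one. Over all 12394 genes, the CD4 comparison called 2.72% higher and 4.14% lower, and the CD8 comparison called 1.59% higher and 1.16% lower. The 6 had a median difference of 0.96 (CD4) and 1.75 (CD8), against 0.02 and 0.07 over all genes. Values of KO and WT arrays did not overlap at 18 h for 5 of 6 genes in each lineage, Cip2a being the exception in both. With only 2 arrays a group, both KO arrays stood above both WT arrays for 25.3% of all genes in the CD4 and 23.5% in the CD8 lineage.

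These counts changed with the pairing of samples and with the arrays kept. With the replicate number as a block within each lineage, 5 of 6 were called higher in each lineage, where 3.80% (CD4) and 4.01% (CD8) of all genes were. Anapc15 was then called in CD4 (adjusted p = 0.00797) and CD8 cells (adjusted p = 0.00589), and Gkap1 (adjusted p = 0.00248) and Ecm1 (adjusted p = 0.0255) were called in CD4 cells. Without CD8 KO 18 h replicate 2 and the 2 arrays next to it in 3' to 5' difference (CD4 WT 0 h replicate 1 and CD8 KO 0 h replicate 2), 4 of 6 were called higher in CD4 and 3 of 6 in CD8 cells, against 3.56% and 0.468% of all genes. In that setting the share of higher genes among all CD8 calls at 18 h went from 57.8% to 29.6%. Gkap1 (adjusted p = 0.0327) and Ecm1 (adjusted p = 0.0321) were then called in CD4 cells, and Eme1 was no longer called in CD8 cells (adjusted p = 0.0645).

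**Figure D1:**
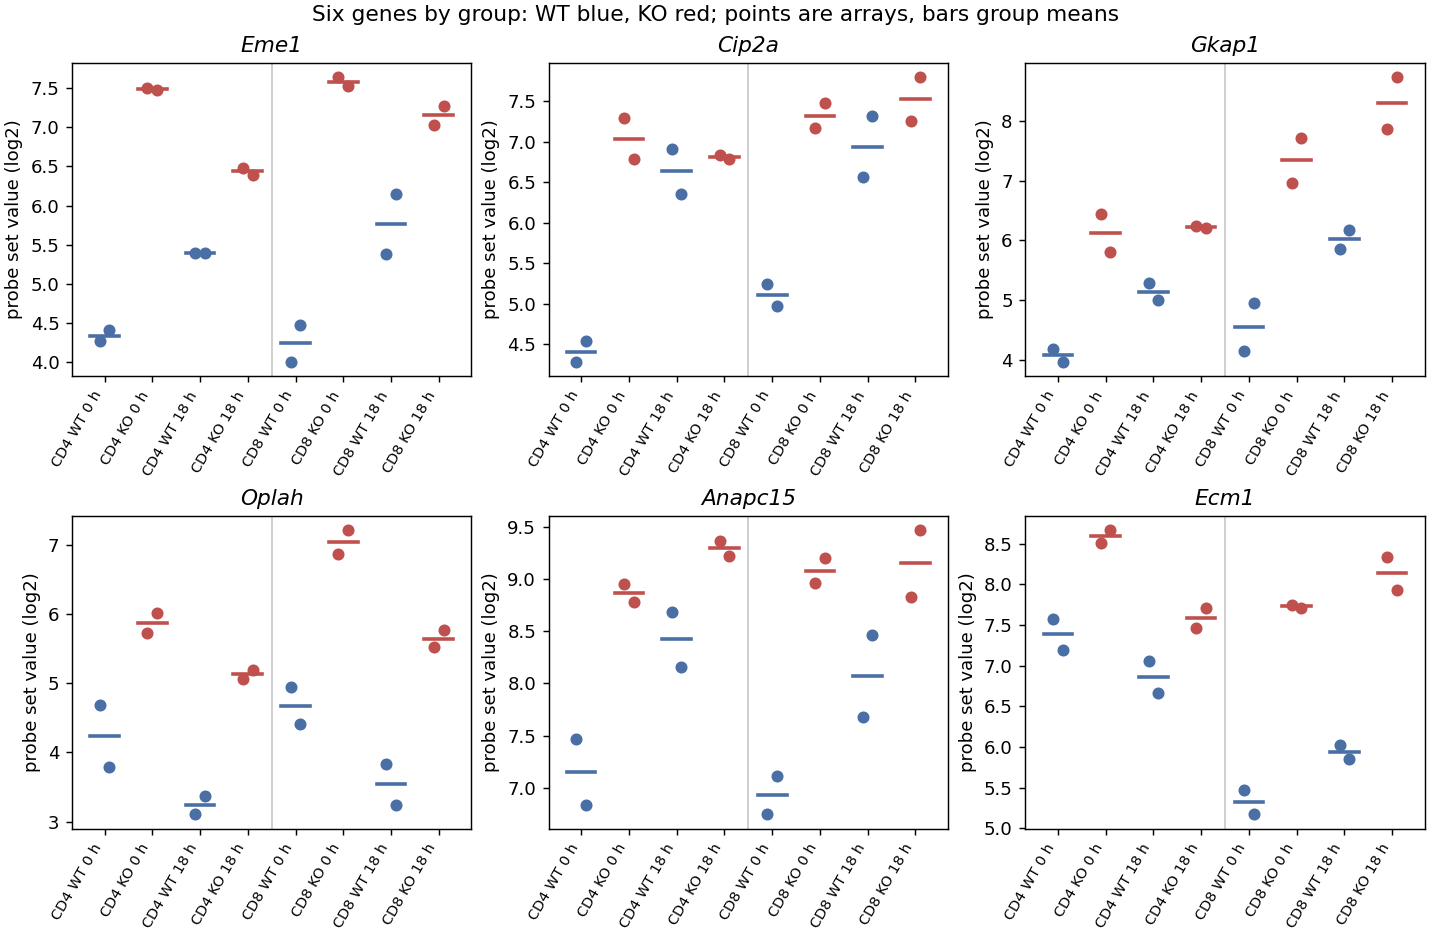
Log2 probe set values of the 6 genes (one panel each) in the 8 groups, with WT in blue and KO in red; points are the 2 arrays and bars their mean. At 18 h the WT and KO arrays overlap for Cip2a, and for the other 5 genes the KO arrays lie higher, which also held for 25.3% (CD4) and 23.5% (CD8) of all genes.

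Eme1 stood at 4.27 and 4.41 in resting WT CD4 cells and at 4.0 and 4.48 in resting WT CD8 cells, below the median of those arrays. In resting KO cells it stood at 7.5 and 7.48 in the CD4 and at 7.64 and 7.53 in the CD8 lineage, a difference of 3.15 ± 0.23 and 3.34 ± 0.23 (log2 ± SE, n = 2 per group). All 4 KO values thus lay above array medians and the 4 WT values below them. After 18 h the CD4 values were 5.40 and 5.39 in WT and 6.48 and 6.40 in KO cells, a difference of 1.04 ± 0.23 (adjusted p = 0.0140). The CD8 values were 5.38 and 6.14 in WT and 7.03 and 7.27 in KO cells, a difference of 1.39 ± 0.23 (adjusted p = 0.00738). The genotypes were nearer at 18 h, as genes chosen for a high difference at 0 h tend to be by that choice. WT cells stood higher than at 0 h and KO cells lower, as values without a test. In CD4 cells the change from 0 h to 18 h was 1.06 in WT and -1.05 in KO, and in CD8 cells it was 1.52 and -0.43. The call in CD4 cells at 18 h was lost without any 1 of the 4 arrays compared, when adjusted p lay between 0.0791 and 0.0931.

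Cip2a had the smallest difference of the 6 after stimulation in both lineages. Its brighter probe set stood at 4.28 and 4.53 in WT and at 7.30 and 6.79 in KO CD4 cells at 0 h, and at 5.24 and 4.97 in WT and 7.17 and 7.48 in KO CD8 cells. The differences were 2.64 ± 0.28 and 2.22 ± 0.28. At 18 h WT CD4 cells stood at 6.91 and 6.36 and KO CD4 cells at 6.83 and 6.79, so that the values overlapped. WT CD8 cells stood at 6.57 and 7.32 and KO CD8 cells at 7.26 and 7.80, which overlapped too. The differences of 0.18 (95% interval -0.44 to 0.79, adjusted p = 0.897) and 0.59 (-0.03 to 1.21, adjusted p = 0.336) did not pass. With 1 array left out the CD8 value ran from 0.21 to 0.96, and it was 0.32 without CD8 KO 18 h replicate 2. From 0 h to 18 h WT cells changed by 2.23 and 1.83 in the CD4 and CD8 lineage and KO cells by -0.23 and 0.20. Resting KO cells were thus near the level of stimulated WT cells, 0.41 ± 0.28 and 0.38 ± 0.28 above them. A second probe set of Cip2a was dim, between 2.95 and 4.32 in all arrays, and differed by 0.14 and 0.64 at 0 h. After stimulation its differences were 0.34 in the CD4 lineage and 0.61 in the CD8 lineage.

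Anapc15 was the brightest of the 6 probe sets relative to all genes, with a mean above that of 78.2% of them. Resting WT cells stood at 7.47 and 6.84 in the CD4 and at 6.75 and 7.11 in the CD8 lineage, and resting KO cells at 8.95 and 8.78 and at 8.96 and 9.20. The differences were 1.71 ± 0.30 and 2.15 ± 0.30. After stimulation WT cells stood at 8.69 and 8.16 (CD4) and 7.68 and 8.47 (CD8), and KO cells at 9.37 and 9.22 and at 8.83 and 9.47. All KO values still lay above the WT values of the same lineage, as for 25.3% (CD4) and 23.5% (CD8) of all genes. The differences of 0.87 ± 0.30 (adjusted p = 0.126) and 1.07 ± 0.30 (adjusted p = 0.0872) did not pass the test. From 0 h to 18 h WT cells changed by 1.27 and 1.14 and KO cells by 0.43 and 0.07. The second probe set of Anapc15 gave 1.85 and 2.08 at 0 h and 0.78 and 0.54 at 18 h. With 1 array left out, the CD8 value of the first at 18 h ran from 0.68 to 1.47. It was 0.75 and not called without CD8 KO 18 h replicate 2, and it was called without replicate 1 (1.40, adjusted p = 0.0204), which leaves only the array of the 3' excess as KO sample.

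Oplah was the only gene of the 6 that stood lower at 18 h than at 0 h in all 4 combinations of lineage and genotype. Resting WT cells stood at 4.69 and 3.78 in the CD4 and at 4.95 and 4.41 in the CD8 lineage, and resting KO cells at 5.73 and 6.01 and at 6.88 and 7.22. The differences were 1.64 ± 0.30 and 2.37 ± 0.30. At 18 h WT CD4 cells stood at 3.10 and 3.37 and KO CD4 cells at 5.06 and 5.20, a difference of 1.89 ± 0.30 (adjusted p = 0.00205). WT CD8 cells stood at 3.84 and 3.25 and KO CD8 cells at 5.52 and 5.77, a difference of 2.10 ± 0.30 (adjusted p = 0.00291). At 18 h the lowest KO array was above the highest WT array in both lineages, as for 25.3% (CD4) and 23.5% (CD8) of all genes. The same held at 0 h, on the values that chose the gene. The level changed by -1.0 and -0.75 in WT and KO CD4 cells and by -1.13 and -1.40 in WT and KO CD8 cells. The CD4 call held whichever array was left out, and that in CD8 cells was lost without CD8 WT 18 h replicate 2 (adjusted p = 0.0515).

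Gkap1 had its highest values in CD8 KO cells. Resting WT cells stood at 4.18 and 3.96 in the CD4 and at 4.15 and 4.95 in the CD8 lineage, and resting KO cells at 6.44 and 5.80 and at 6.97 and 7.72. The differences were 2.05 ± 0.34 and 2.79 ± 0.34. After stimulation the CD8 values were 5.86 and 6.17 in WT and 7.86 and 8.73 in KO cells, a difference of 2.28 ± 0.34 (adjusted p = 0.00494). The CD4 values were 5.29 and 4.99 in WT and 6.25 and 6.21 in KO cells, a difference of 1.09 ± 0.34 that did not pass (adjusted p = 0.0860). From 0 h to 18 h WT cells changed by 1.07 and 1.47 in the CD4 and CD8 lineage and KO cells by 0.11 and 0.95. Without CD8 KO 18 h replicate 2, which had the highest value of all, the CD8 difference was 1.85 and remained called, and the CD4 difference was called (adjusted p = 0.0420), as it was without the other CD8 KO 18 h array.

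Ecm1 differed between the lineages as well as between the genotypes. Resting WT cells stood at 7.58 and 7.2 in the CD4 and at 5.48 and 5.17 in the CD8 lineage, whereas resting KO cells stood at 8.51 and 8.67 and at 7.74 and 7.72. KO CD8 cells thus lay slightly above WT CD4 cells, and the KO minus WT differences at 0 h were 1.21 ± 0.20 (CD4) and 2.41 ± 0.20 (CD8). At 18 h WT CD8 cells stood at 6.03 and 5.85 and KO CD8 cells at 8.34 and 7.94, a difference of 2.20 ± 0.20 (adjusted p = 0.000207) that was called whichever array was left out. WT CD4 cells stood at 7.06 and 6.67 and KO CD4 cells at 7.46 and 7.71, a difference of 0.72 ± 0.20 that lay just outside the threshold (adjusted p = 0.0502). From 0 h to 18 h Ecm1 changed by -0.53 and -1.01 in WT and KO CD4 cells and by 0.61 and 0.41 in WT and KO CD8 cells. Whether the direction differed by lineage was not tested. That CD4 difference was called without either CD4 WT 0 h array (adjusted p = 0.0486) or without either CD8 KO 18 h array (adjusted p = 0.0296).

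**Figure D2:**
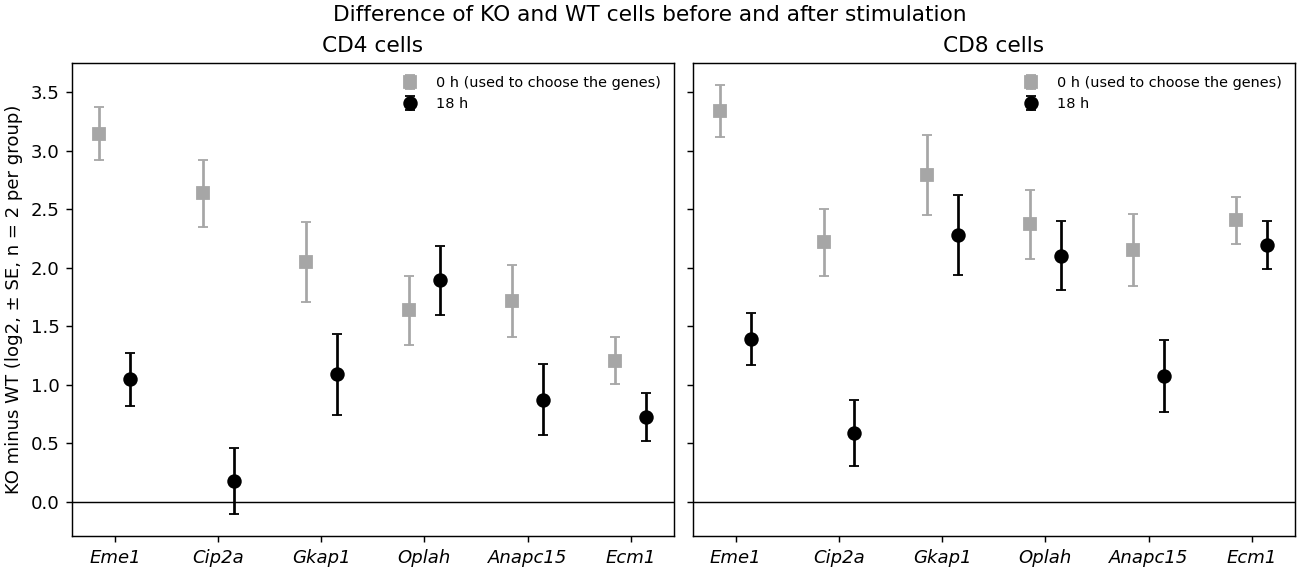
KO minus WT (log2, ± SE, 2 arrays per group) for each gene in CD4 (left) and CD8 cells (right), at 0 h (grey squares, the values that chose the genes) and at 18 h (black circles). Genes chosen for high values at 0 h tend by that choice to stand lower at 18 h, and 11 of the 12 pairs do.

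The change of the difference between genotypes from 0 h to 18 h is given as values only, because genes chosen on high differences at 0 h tend by that choice to differ less at 18 h. For Eme1 it was -2.10 and -1.95 in the CD4 and CD8 lineage and for Cip2a -2.46 and -1.63. For Anapc15 it was -0.84 and -1.08, for Oplah 0.25 and -0.27, and for Gkap1 and Ecm1 it lay between -0.96 and -0.21. Set against stimulated WT cells of the same lineage, resting KO cells had higher levels of Eme1 by 2.09 and 1.82 (CD4 and CD8), of Oplah by 2.64 and 3.5, of Ecm1 by 1.73 and 1.79 and of Gkap1 by 0.98 and 1.33. For Anapc15 the values were 0.44 and 1.01.

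Whether the KO effect at 18 h differed between lineages was tested directly. None of the 6 genes passed the test of that difference by limma, in which 0.0403% of all genes were called, 5 in number. An unadjusted p under 0.05 was found for 2 of the 6 and for 6.83% of all genes. Those were Ecm1, with an effect larger in CD8 cells by 1.47 ± 0.29 (95% interval 0.85 to 2.09, adjusted p = 0.134), and Gkap1, larger by 1.19 ± 0.49 (0.13 to 2.25, adjusted p = 0.634). Without CD8 KO 18 h replicate 2 these values were 1.67 for Ecm1 (adjusted p = 0.124) and 0.76 for Gkap1. Ecm1 passed without CD8 KO 18 h replicate 1 (1.27, adjusted p = 0.0351), which keeps only the array of the 3' excess as CD8 KO sample, and in none of the other 15 fits with an array left out. For Eme1, Cip2a, Oplah and Anapc15 the difference lay between 0.20 and 0.41, with intervals that reached from -0.73 to 1.29 over these 4 genes.

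Between stimulated WT cells of the 2 lineages, Ecm1 differed by -0.92 ± 0.20 (CD8 minus CD4, adjusted p = 0.0267), 1 of 6 genes called, where 2.32% of all genes were called higher and 0.96% lower in the CD8 lineage. The call was lost without any 1 of the 4 arrays compared, with adjusted p between 0.050 and 0.225. Gkap1 was 0.88 ± 0.34 higher in CD8 cells, which did not pass, and the other 4 genes differed by -0.35 to 0.37.

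Genes beside the 6 on their chromosomes were followed because they were chosen by place and not by value. The nearest protein-coding RefSeq gene on either side gave 12 genes, of which 8 were measured by a probe set of their own. By limma 0 of these 8 were called higher in KO cells at either time. Over all genes 0.533% to 2.72% were called higher in the 4 comparisons, so that 0 of 8 is near that share. An unadjusted p under 0.05 was found at 0 h for 0 of the 8 in the CD4 lineage and 3 in the CD8 lineage, all higher, against 10.5% and 10.8% of all genes. At 18 h it was found for 3 in CD4 cells, all lower, and for 4 in CD8 cells, of which 1 was higher, against 17.6% and 16.5%. Mrpl27, a mitochondrial ribosomal protein that shares its start region with Eme1, and Exosc4, a subunit of the RNA exosome whose annotated span overlaps that of Oplah, were lower in stimulated KO CD4 cells. Mrpl27 stood at 9.48 and 8.98 in WT and at 6.83 and 6.01 in KO CD4 cells at 18 h, a difference of -2.81 ± 0.31 (adjusted p = 0.000185). In CD8 cells at 18 h it stood at 9.0 and 9.43 in WT and at 8.10 and 8.68 in KO cells, a difference of -0.82 ± 0.31 that did not pass (adjusted p = 0.194) but did with the block within lineage (adjusted p = 0.0125), and it was -1.11 without CD8 KO 18 h replicate 2. At 0 h its differences were -0.61 and -0.25, neither called by limma (adjusted p = 0.534 and 0.860). At 18 h Mrpl27 stood below 0 in both lineages and Eme1 above it. The sign of Eme1 at 0 h was fixed by its choice, so that no such comparison is drawn there.

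Exosc4 stood at 8.42 and 8.34 in WT and at 6.92 and 6.65 in KO CD4 cells at 18 h, a difference of -1.60 ± 0.26 (adjusted p = 0.00290). In CD8 cells at 18 h it stood at 7.98 and 8.23 in WT and at 6.86 and 7.52 in KO cells, a difference of -0.91 ± 0.26 (adjusted p = 0.0929, or 0.00482 with the block within lineage) that was -1.24 without CD8 KO 18 h replicate 2. Its values of KO and WT cells at 18 h thus lay in the opposite order to those of Oplah in both lineages. The remaining measured genes were Lrrc59 (Eme1), Ubqln1 (Gkap1), Smpd5 (Oplah), Folr1 (Anapc15) and Adamtsl4 and Tars2 (Ecm1), and none of them was called at either time. At 0 h the 8 genes differed by -0.61 to 0.65. Dzip3 and Myh15 beside Cip2a, Kif27 beside Gkap1 and Tomt beside Anapc15 were not analysed here.

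**Figure D3:**
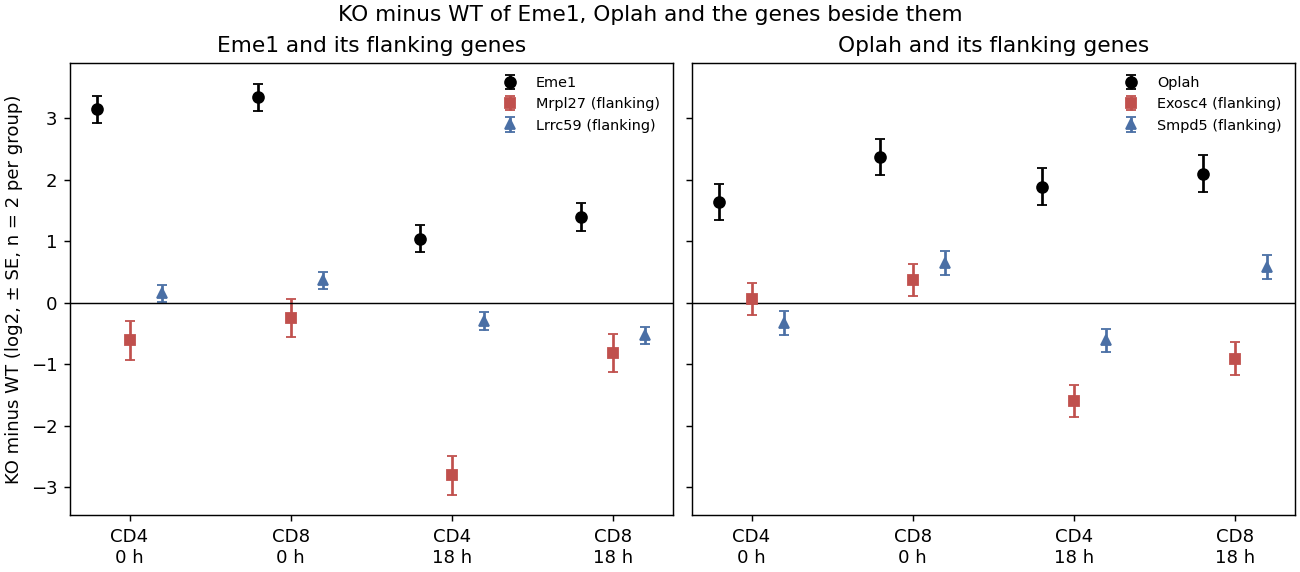
KO minus WT (log2, ± SE, 2 arrays per group) of Eme1 with Mrpl27 and Lrrc59 (left) and of Oplah with Exosc4 and Smpd5 (right) in the 4 comparisons on the horizontal axis. Eme1 and Oplah, which were chosen for their values at 0 h, lie above 0 throughout. Mrpl27 reaches -2.81 and Exosc4 -1.60 in CD4 cells at 18 h.

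Genes that work with each of the 6 were read from lists of 110 measured genes in all, without the 6 themselves. At rest, KO CD4 cells had 3 of the 110 called higher and 1 called lower, against 0.533% and 0.742% of all genes. Resting KO CD8 cells had 2 called higher and 1 called lower, against 1.13% and 0.5%. After stimulation the counts were 1 higher and 10 lower in the CD4 lineage, against 2.72% and 4.14% of all genes, and 1 higher and 2 lower in the CD8 lineage, against 1.59% and 1.16%. These 21 calls over the 4 comparisons became 8 to 11 without any 1 of the CD4 18 h arrays and 46 without CD8 KO 18 h replicate 1. Of 11 structure-specific nucleases and Holliday junction factors, the partner of Eme1, Mus81, differed by -0.44 to 0.15 in the 4 comparisons with no call. Topbp1, a scaffold of the DNA damage response, was higher in KO CD4 cells at 0 h by 0.87 ± 0.17. Ercc5, a nuclease of excision repair, was lower at 0 h, at -0.77 ± 0.16 in CD4 and -0.75 ± 0.16 in CD8 cells. In CD4 cells at 18 h the nuclease genes Exo1 and Fen1 were lower in KO than WT cells, by 2.31 ± 0.44 and 1.17 ± 0.28.

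Of 25 PP2A subunits and regulators, which Cip2a belongs with, 0 were called at 0 h by limma. An unadjusted p under 0.05 was found at 0 h for 1 of them in CD4 and 2 in CD8 cells, against 10.5% and 10.8% of all genes. At 18 h it was found for 7 and 3, against 17.6% and 16.5%. At 18 h Tiprl, which binds PP2A-type phosphatases, was called lower in CD4 cells at -0.70 ± 0.15. The catalytic subunit gene Ppp2ca differed by -0.04 to 0.11. Of 17 genes of cGMP and cAMP kinases and their anchors, the list of Gkap1, Gucy1b1, a subunit of guanylate cyclase, was higher in KO CD4 cells at 0 h by 1.52 ± 0.31 and the anchor gene Akap12 was lower in CD4 cells at 18 h, at -0.68 ± 0.18. Prkg1, the cGMP-dependent kinase, differed by -0.06 to 0.45 with no call. Of 18 genes of the gamma-glutamyl cycle and glutathione, the list of Oplah, 0 were called at 0 h by limma. At 0 h 3 of them had an unadjusted p under 0.05 in each lineage, against 10.5% and 10.8% of all genes. At 18 h 6 in CD4 and 9 in CD8 cells had one, against 17.6% and 16.5%. In KO against WT CD4 cells at 18 h the peroxidase gene Gpx1 was lower by 2.09 ± 0.25. The amino acid transporter subunit gene Slc3a2 was higher there by 0.97 ± 0.19. The aminopeptidase gene Lap3 was lower in KO CD8 cells at 18 h by 0.65 ± 0.16.

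Of 22 genes of the anaphase-promoting complex and its regulators, the list of Anapc15, Trip13, a remodeller of the mitotic checkpoint, was higher in KO cells at rest, by 2.10 ± 0.32 (CD4) and 1.80 ± 0.32 (CD8), and Ube2c, the complex's ubiquitin-conjugating enzyme, was higher in CD8 cells by 1.99 ± 0.27. At 18 h 5 of the 22 were called lower in KO than WT CD4 cells, against 4.14% of all genes. Trip13 differed there by -2.31 ± 0.32 and Cdc20, an activator of the complex, by -1.42 ± 0.20. The other 3 were Mad2l1, Anapc11 and Anapc5. In KO against WT CD8 cells at 18 h Trip13 was called lower, at -1.33 ± 0.32, and Ube2d1 was called higher, at 0.94 ± 0.23. Of 17 genes of T cell egress, adhesion and the IL-2 receptor, the list of Ecm1, 0 were called in any of the 4 comparisons by limma. An unadjusted p under 0.05 was found for 0 to 3 of them, against 10.5% to 17.6% of all genes. Calls in 1 direction covered 0.5% to 4.14% of all genes, so that 0 of 17 is near that share. Trip13 and Cenph, which stood among the 6 at rest, thus lay on the other side of 0 at 18 h. Cenph, of the kinetochore, stood at -1.24 ± 0.32 in CD4 and -0.25 ± 0.32 in CD8 cells, with adjusted p of 0.0350 and 0.780.

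Markers of cycling cells stood higher in KO cells at rest, as the 6 genes did, and lower in stimulated KO CD4 cells. The mean of 11 such markers, among them Mki67, Top2a and Cdk1, was 4.98 to 4.99 in resting WT and 5.73 to 5.93 in resting KO CD4 cells, and 5.15 to 5.74 and 7.2 to 7.35 in CD8 cells. At rest 2 of the 11 were called higher in the CD4 and all 11 in the CD8 lineage, against 0.533% and 1.13% of all genes. After stimulation the mean was 6.31 to 6.76 in WT and 5.18 to 5.31 in KO CD4 cells. There 8 of 11 were called lower and 0 higher, against 4.14% and 2.72% of all genes. The 6 genes differed by 0.18 (Cip2a) to 1.89 (Oplah) in that same comparison, in which 2 of the 6 were called higher. In stimulated CD8 cells the means overlapped, at 7.01 to 7.75 in WT and 7.15 to 7.30 in KO. There 1 of 11 was called higher, against 1.59% of all genes. The part of cycling cells in the differences at 0 h was not tested.

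**Figure D4:**
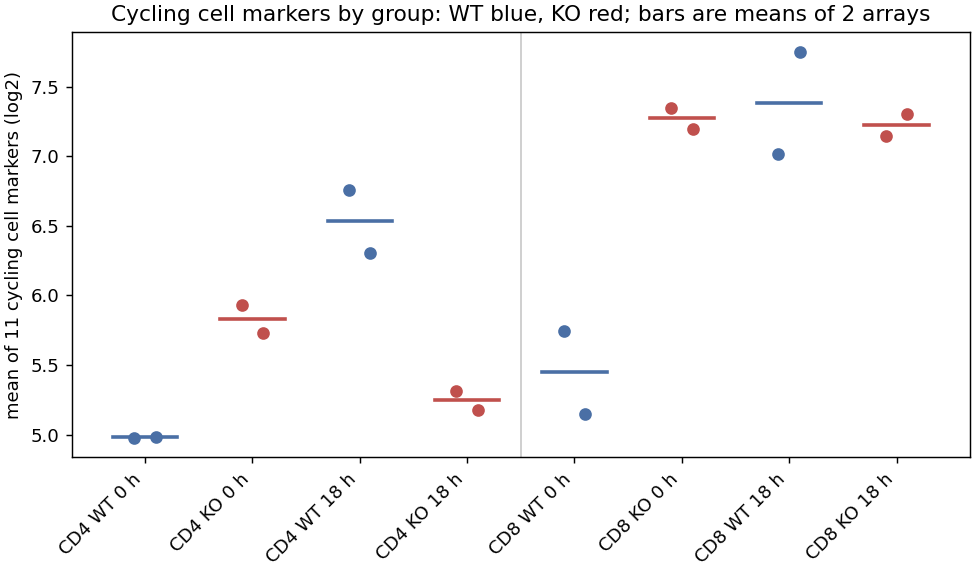
Mean log2 level of 11 cycling cell markers in each array, by group, with WT in blue and KO in red; bars are means of the 2 arrays. KO lies above WT at 0 h in both lineages, below WT in CD4 cells at 18 h (5.18 to 5.31 against 6.31 to 6.76), and overlaps with it in CD8 cells at 18 h.

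Other cell types were read in the same way. The mean of 7 B cell markers was 5.20 to 5.84 in resting WT and 5.15 to 5.28 in resting KO CD4 cells and 5.68 to 5.77 and 5.25 to 5.44 in CD8 cells. Means of 8 myeloid markers overlapped between the genotypes at rest in both lineages (4.98 to 5.32 against 5.07 to 5.30 and 4.92 to 5.16 against 4.87 to 5.41). Of 11 markers of memory and effector T cells, Cxcr3 and Ahnak were called lower in resting KO CD4 cells, at -1.52 ± 0.32 and -1.20 ± 0.19, against 0.742% of all genes. The mean of the list overlapped between the genotypes in both lineages. In resting WT CD4 cells it was 6.50 in replicate 1 and 5.76 in replicate 2. The mean of 4 NK cell markers there was 6.38 and 4.76, and 5.77 and 4.89 in resting KO CD4 cells. Replicate 1 of resting WT CD4 cells also had the higher B cell mean, 5.84, and the lower naive T cell mean, 9.44. The mean of 4 naive T cell markers was 10.31 to 10.33 in resting WT and 9.64 to 9.91 in resting KO CD8 cells, which did not overlap, and 9.44 to 10.56 and 10.19 to 10.25 in CD4 cells, which did. The part of these cells in the values of the 6 genes was not tested.

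Across the 16 arrays, which include the 0 h arrays that chose them, the 6 genes were alike to differing degrees. Over their 15 pairs Pearson's r, given as a description over arrays that share group and lineage, ran from 0.37 for Cip2a and Oplah to 0.89 for Eme1 and Anapc15. Eme1, Cip2a, Gkap1 and Anapc15 correlated with each other at 0.82 to 0.89. Pairs with Oplah or Ecm1 lay at 0.37 to 0.72. Nearest to Eme1 over all genes were Ufc1 (r = 0.94) and Dus1l (0.93), and nearest to Anapc15 were the proteasome gene Psma6 (0.98) and Hdhd2 (0.97). Nearest to Cip2a were Mrpl43 (0.96) and Cenph (0.91), to Gkap1 Iftap and Cox6a1 (both 0.90), to Oplah Col20a1 (0.94) and Wdr45 (0.93), and to Ecm1 Sav1 (0.90) and Wwp2 (0.86). None of the 6 was among the 2 nearest genes of another.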

How the data were processed

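Amplified, biotin-labelled RNA was hybridized to Affymetrix mouse arrays. The deposited values are log2 probe set signals that the authors had made with the R packages affy and limma and had normalized between arrays. Versions and the summary method are not given in the sources used here. Of 22690 probe sets, 20393 named exactly 1 gene through the platform table, 691 several and 1606 none, and 20364 of the first were found in RefSeq tables of GRCm38.p6. The brightest probe set stood for each of 12394 genes. Groups came from the labels.

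Group means of all 16 arrays were estimated with limma (version 3.58.1, R version 4.3.3), which shared 1 spread per gene among the 8 groups (8 residual degrees of freedom, 4.32 from the prior). Calls needed an adjusted p (Benjamini-Hochberg, over all genes, two-sided) under 0.05 and a fold over 1.5, or the adjusted p alone for the difference between lineages. Precision is limited by the number of arrays, which hold no read depth. The fit was also run on simulated arrays whose noise was independent between arrays. That run says nothing about correlated replicates or about the array with the 3' excess. Per the methods each sort was split between 0 h and 18 h, and the labels do not say what a shared replicate number marks. Replicate 2 minus replicate 1 correlated across genes at 0.26 to 0.45 among the 6 pairs of CD4 groups, at 0.18 to 0.56 among the 6 of CD8 groups and at -0.60 to -0.12 between lineages, and the fit with the number as a block within lineage is given where it changed a call. The 6 genes, the gene lists, the neighbours and the tests were chosen with earlier results of these data known. Besides the 6, the genes named were the nearest protein-coding genes, up to 4 called genes per list by smallest adjusted p, the 2 genes of highest correlation over the arrays with each, the genes next to the 6 in rank, Gabpa and markers. Other members of small counts (Mad2l1, Anapc11, Ube2d1, Cxcr3, Ahnak) and the partners Mus81, Ppp2ca and Prkg1 were named after their values were seen. Normalization, test, filter, weights, prior, block and left-out arrays were varied.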

Additional observations from a re-analysis of the deposited data

How the results depend on the processing

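The count of 2 genes called higher in KO CD4 cells at 18 h became 5 with array weights, 4 without the 3 arrays that stood highest in 3' over 5' signal, 1 when tested against a fold of 1.5 and 1 in a fit of the 18 h arrays alone, and lay between 1 and 4 when each array was left out. The count of 4 in CD8 cells became 2 with array weights and 2 against a fold of 1.5, and lay between 3 and 5 with each array left out. The count of 0 for the difference between lineages held in the alternatives and was 0 to 1 with an array left out, and the count of 1 between WT lineages became 0 against a fold of 1.5 and 0 in the 18 h arrays alone, with 0 to 1 when an array was left out. The 21 calls of the pathway lists became 12 when arrays were centred on their medians and 3 against a fold of 1.5 (8 to 46 with an array left out), and the 2 calls of neighbours became 1 against a fold of 1.5 (2 to 4 with an array left out). The cause was not tested.

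With the replicate number as a block the counts above were 3, 4, 0 and 1. At 18 h that fit called 2.55% (CD4) and 1.23% (CD8) of all genes higher. With a block within each lineage the first 3 were 5, 5 and 0, with 37 pathway and 4 neighbour calls. The difference between WT lineages is not estimated within such blocks. The shares of all genes called higher were then 3.80% (CD4) and 4.01% (CD8). With the numbers crossed between lineages, added after the data were seen, the counts were 5, 5, 0 and 2, with 36 and 4. The shares were then 3.83% (CD4) and 4.12% (CD8).

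Centring on the medians of the genes tested, also added later, gave 4 calls in CD4 cells at 18 h, where 4.58% of all genes were called higher. It moved the median of all genes from 0.02 to 0.12 there, from 0.02 to -0.12 in CD8 cells at 0 h and from 0.07 to -0.12 for the difference between lineages, and the share of higher genes among all calls from 39.6% to 56.3%, from 69.3% to 50.8% in CD8 cells at 0 h, from 57.8% to 47.2% in CD8 cells at 18 h and from 70.8% to 55.9% between WT lineages. Centring on array medians moved that share from 41.8% to 31.5% in CD4 cells at 0 h. Values whose sign turned were all small and not called. Centring on array medians gave -0.016 for Ubqln1 and -0.016 for Exosc4 (CD4 0 h), and centring on the genes tested -0.086 for Folr1 and -0.12 for Adamtsl4 (CD8 0 h). Without the 3 arrays the values were -0.12 for Anapc15 (difference between lineages) and, for Ubqln1, -0.13 (CD4 0 h) and 0.15 (CD8 18 h). With each array left out, the values whose sign turned ranged as follows. The difference between lineages was -0.036 to 0.73 for Eme1, -0.086 to 0.51 for Oplah and -0.19 to 0.60 for Anapc15. WT CD8 minus CD4 was -0.014 to 0.75 for Eme1, -0.071 to 0.68 for Cip2a and -0.74 to 0.043 for Anapc15. KO minus WT was -0.10 to 0.45 for Cip2a (CD4 18 h), -0.51 to 0.0090 for Mrpl27 (CD8 0 h), -0.13 to 0.24 for Ubqln1 (CD4 0 h), -0.43 to 0.15 for Ubqln1 (CD8 18 h), -0.12 to 0.23 for Exosc4 (CD4 0 h), -0.34 to 0.12 for Folr1 (CD8 18 h), -0.12 to 0.15 for Adamtsl4 (CD8 0 h) and -0.0043 to 0.56 for Adamtsl4 (CD4 18 h).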
